A study of Mus musculus with 12 samples.

Results

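Collagen chain genes encode the polypeptides that wind in threes into collagen molecules. They were taken as every gene on the array whose annotated symbol is Col, a type number, a and a chain number, with 1 probe set per gene, the one of highest mean signal over all 12 arrays. This gave 42 genes of the 18193 that carry a single symbol on the array, and 32 of the 42 passed the filter on dim signals, among 12379 genes tested in all. The symbol and the mean signal over all arrays chose the genes and probe sets, and no difference between groups entered the choice, but the family was picked with genotype results of these data known. The arrays measured total RNA of pineal glands, the brain's melatonin-producing gland, from mice of strain 129sv. There were 3 arrays, each labelled a biological replicate, of Crx-/- glands at Zeitgeber time 6 (ZT6, in the light phase), of control glands at ZT6, of Crx-/- glands at ZT20 (in the dark phase) and of control glands at ZT20. All animals were of both genders, older than 2 months, kept in 12 h light and 12 h dark, and killed with CO2 and decapitation, under dim red light at ZT20. Crx is a homeobox transcription factor of photoreceptors and pinealocytes. The allele behind the Crx-/- label is not given in the sources used here.

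Collagen molecules are built by cells, folded and hydroxylated in the endoplasmic reticulum, secreted, trimmed and cross-linked. Fibrillar chains form the ropes of connective tissue, type IV chains form the sheet of basement membranes, and the remaining families decorate fibrils, form beaded filaments, anchor membranes or span the cell surface. In and around the brain they are made mainly by fibroblasts of the meninges and of vessel walls, by mural cells and by endothelium. In bulk tissue such as this, more cells of a type and more RNA per cell cannot be told apart.

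Values are log2 of the normalised signal plus 3.4, differences are on that scale, and a gene was called where limma's p adjusted over all 12379 genes was under 0.05. The 2 probe sets annotated to Crx gave signal in both genotypes. The brighter read 12.67, 12.87 and 12.56 in Crx-/- glands at ZT6, against 12.69, 12.66 and 12.75 in control glands, and 12.93, 13.03 and 13.06 in Crx-/- glands at ZT20, against 13.18, 13.27 and 13.02 in control glands. The dimmer read 10.42, 10.52 and 10.35 in Crx-/- glands at ZT6, against 11.21, 11.07 and 11.10 in control glands, a difference of -0.70 ± 0.18 (SE, limma adjusted p = 0.0155). At ZT20 it read 11.00, 11.18 and 11.01 in Crx-/- glands, against 11.80, 11.93 and 11.03 in control glands. Where these probes lie relative to the deleted part is not given in the sources used here, so they settle no label.

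One array, labelled control ZT20 replicate 3, did not resemble the rest of its group. Across genes it correlated at 0.914 to 0.924 with the other arrays of its group and at 0.970 to 0.989 with the Crx-/- ZT20 arrays, while the other replicate pairs lay at 0.979 to 0.992. It carried the control ZT20 value of 11.03 at the dimmer Crx probe set. Among the tested collagen genes 22 of 32 (68.8%) were nearer on it to the Crx-/- ZT20 mean than to the mean of its own group's other arrays, against 66.0% of all genes tested. Results that use control glands at ZT20 are therefore given with and without it. The trimmed mean signal ran from 381.8 to 698.3 over the arrays, and the 5' to 3' signal ratio of actin, a sign of RNA quality, was 0.169 to 0.219 on Crx-/- arrays at ZT6, against 0.248 to 0.283 on control arrays, and 0.197 to 0.282 on Crx-/- arrays at ZT20, against 0.197 to 0.337 on control arrays. Its part in the ZT6 differences was not tested.

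Of the 10 genes not tested, Col24a1 and Col9a1 were above the level of the bacterial control probe sets on all 12 arrays, and Col6a5 was above it on 0. The others were Col10a1, Col11a2, Col17a1, Col19a1, Col2a1, Col6a4 and Col9a2, and the highest value of any of the 10 on any array was 7.51, for Col9a1. Col2a1 and Col10a1, the main fibrillar chain of cartilage and the chain of its growth plate, were above background on 7 and 5 arrays. Of the 32 tested, 22 were at or above the array median on all 12 arrays, 0 passed the filter through 1 group alone, and 32 were above background on every array.

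At ZT6 collagen signal was mostly higher in Crx-/- glands. Of the 32 tested genes 20 were higher and 3 lower in Crx-/- than in control glands at ZT6, where 18.9% of all genes tested were called higher and 13.1% lower. The median difference over the 32 genes was 1.08, against 0.03 over all genes tested. The 3 Crx-/- arrays lay wholly above the 3 control arrays for 21 of the 32 and wholly below for 3, and over all genes these shares were 30.6% and 24.5%. Without control ZT20 replicate 3, which enters the ZT6 comparison only through the shared estimate of spread, 21 genes were called higher and 3 lower (24.8% and 18.7% of all genes tested), Col4a6 being added at 0.50.

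**Figure D1:**
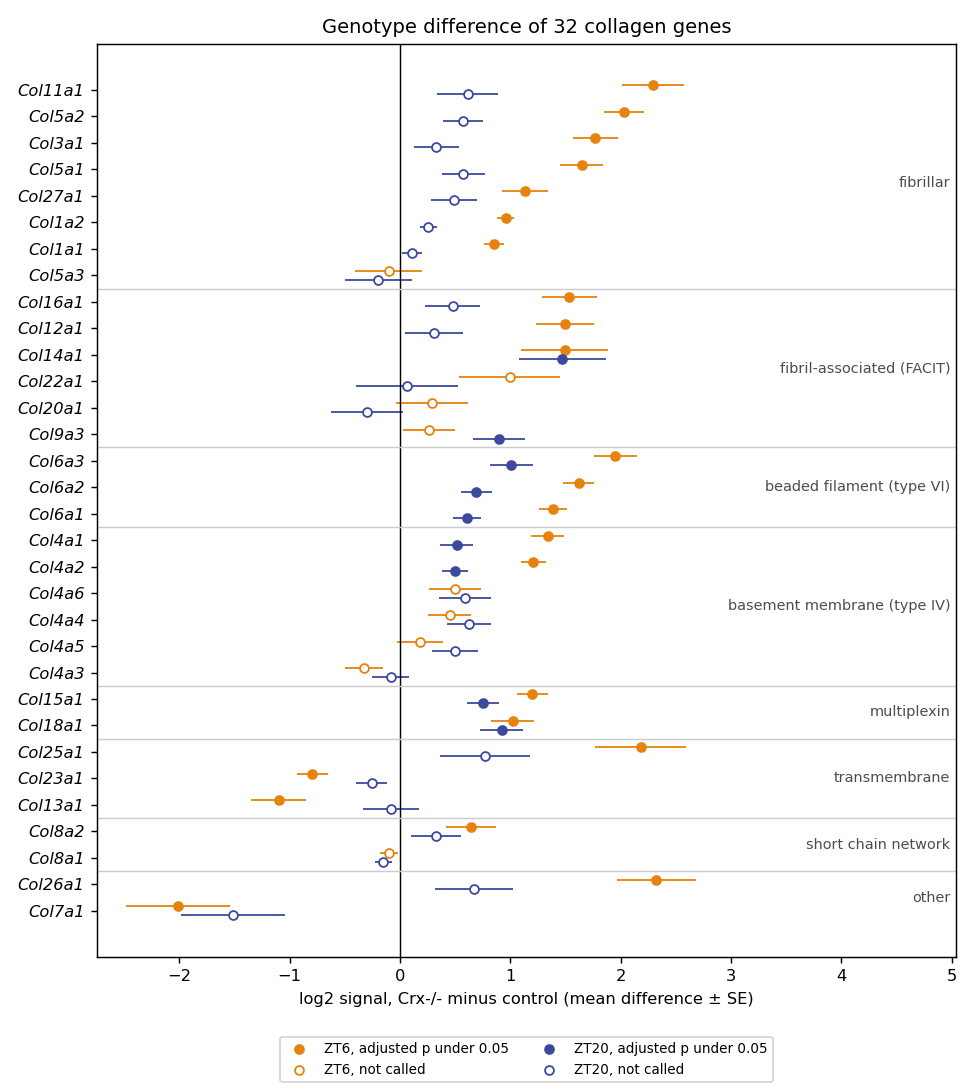
Difference between Crx-/- and control glands (log2 signal, mean ± SE) for the 32 tested collagen genes, at ZT6 in orange and at ZT20 in blue, with filled points for an adjusted p under 0.05 and genes grouped by family. At ZT6 20 genes were called higher and 3 lower; at ZT20 9 were called higher, and the fibrillar genes other than Col5a3 lay closer to 0 than at ZT6.

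Most fibrillar chains were higher at ZT6. They are the rope-forming collagens I, III and V with the minor chains XI and XXVII, and 7 of the 8 tested were called higher at ZT6, with a median of 1.39. Col1a1 and Col1a2 encode the chains of type I, the most abundant collagen of skin and bone. Col1a1 read 12.91, 12.71 and 13.04 in Crx-/- glands at ZT6, against 12.05, 12.02 and 12.05 in control glands. Col1a2 read 12.99, 12.97 and 12.89 in Crx-/- glands at ZT6, against 11.93, 11.96 and 12.09 in control glands. The genotypes did not overlap for either gene, and the differences were 0.85 ± 0.09 and 0.96 ± 0.08 (limma adjusted p = 0.000211 and 0.00013).

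Col3a1, the type III chain of vessel walls and loose connective tissue, read 12.41, 12.54 and 12.09 in Crx-/- glands at ZT6, against 10.46, 10.41 and 10.86 in control glands, 1.77 ± 0.21 higher (limma adjusted p = 0.000291). Col5a1 and Col5a2, chains of type V that nucleate type I fibrils, were 1.65 ± 0.19 and 2.03 ± 0.18 higher (limma adjusted p = 0.000318 and 0.00013). Col11a1, a minor fibrillar chain best known in cartilage, was dim in control glands. It read 7.56, 7.66 and 7.61 in Crx-/- glands at ZT6, against 5.06, 5.48 and 5.41 in control glands, 2.29 ± 0.28 higher (limma adjusted p = 0.000357). Col27a1 was 1.13 ± 0.21 higher, and Col5a3, another type V chain, differed by -0.10 ± 0.30 (limma adjusted p = 0.0021 and 0.819). Col3a1 and Col5a2 are neighbours on chromosome 1.

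The upstream sequences of 3 of the genes that were higher and of Col7a1, the gene of largest fall, are shown as the start regions of genes whose Crx-/- and control arrays separated at ZT6 in either direction. Each is the 250 bases before the annotated start, read 5′ to 3′ on the plus strand from RefSeq (GRCm38.p6). They lie at chr6:4505368-4505617 (Col1a2), chr1:45311288-45311537 (Col3a1), chr3:114030290-114030539 (Col11a1) and chr9:108953336-108953585 (Col7a1), and none overlaps another annotated gene. Capitals mark 3 boxes in these sequences. The CCAAT box was searched as CCAAT, which reads ATTGG when it lies on the other strand. The TATA box was searched as TATAAA, with TTTATA as its other-strand form. The GC box was searched as GGGCGG, with CCGCCC as its other-strand form. No matches overlapped.
Col1a2: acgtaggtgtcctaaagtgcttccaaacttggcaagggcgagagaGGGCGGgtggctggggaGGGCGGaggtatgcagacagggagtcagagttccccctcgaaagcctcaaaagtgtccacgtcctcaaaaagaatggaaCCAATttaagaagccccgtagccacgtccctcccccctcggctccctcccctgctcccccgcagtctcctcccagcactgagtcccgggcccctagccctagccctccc
Col3a1: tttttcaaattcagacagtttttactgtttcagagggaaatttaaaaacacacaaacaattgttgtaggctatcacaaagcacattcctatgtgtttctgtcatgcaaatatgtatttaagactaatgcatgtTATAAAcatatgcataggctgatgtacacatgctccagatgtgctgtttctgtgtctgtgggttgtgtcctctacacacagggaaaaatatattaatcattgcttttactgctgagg
Col11a1: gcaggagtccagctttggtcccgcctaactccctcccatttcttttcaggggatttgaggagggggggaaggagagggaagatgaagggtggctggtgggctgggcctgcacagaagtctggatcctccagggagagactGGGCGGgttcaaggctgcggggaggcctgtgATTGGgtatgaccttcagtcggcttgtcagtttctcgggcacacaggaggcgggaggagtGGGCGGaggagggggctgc
Col7a1: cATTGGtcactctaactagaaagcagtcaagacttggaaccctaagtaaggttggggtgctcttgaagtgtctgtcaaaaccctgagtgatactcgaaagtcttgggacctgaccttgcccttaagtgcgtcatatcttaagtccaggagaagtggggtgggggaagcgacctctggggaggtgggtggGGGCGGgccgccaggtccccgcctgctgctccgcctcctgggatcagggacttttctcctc
The Col1a2 window held 1 CCAAT box and 2 GC boxes, that of Col11a1 1 CCAAT box on the other strand and 2 GC boxes, that of Col3a1 1 TATA box, and that of Col7a1 1 CCAAT box on the other strand and 1 GC box. Promoters of 33 of the 42 genes, 36 in all, were in the RefSeq table. On either strand the GC box lay in 58.3% of the 36 and in 32.7% of 32851 promoters, the CCAAT box in 36.1% and 33.8%, and the TATA box in 13.9% and 12.4%. The core letters that Crx and the related Otx proteins bind, TAATCC, or GGATTA where they lie on the other strand, were in 0 of the 36 windows and in 6.3% of all promoters. A match describes letters only and is neither a site nor a cause, and distal elements lie outside these windows.

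**Figure D2:**
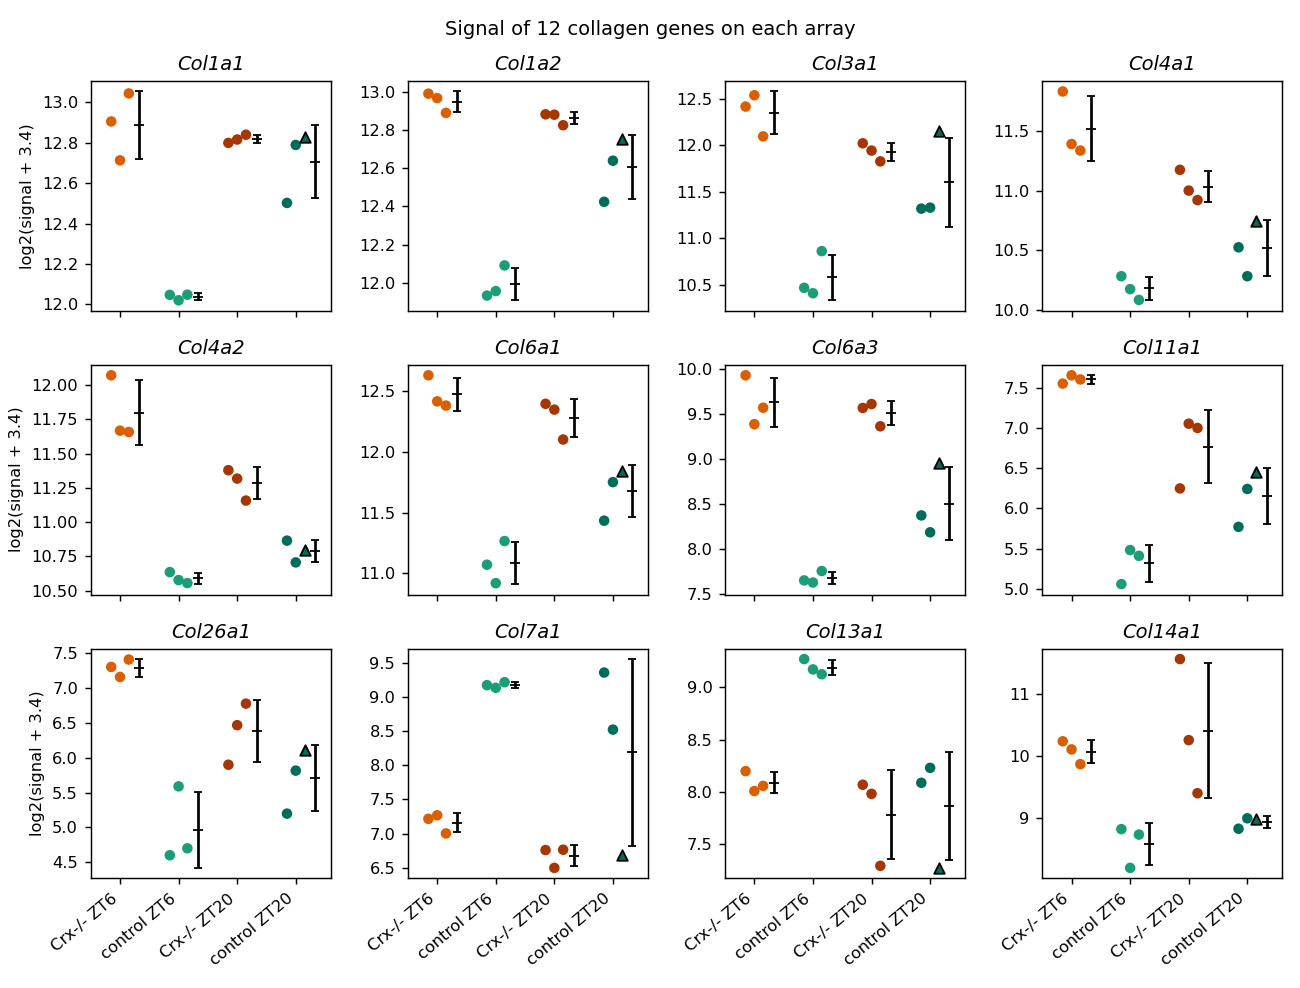
Signal of 12 collagen genes, log2(signal + 3.4), on each of the 12 arrays, with 1 point per array and the mean ± SD (n = 3) beside each group; the triangle is the array labelled control ZT20 replicate 3 and each panel has its own scale. Crx-/- ZT6 arrays lie above the control ZT6 arrays for every gene but Col7a1 and Col13a1, and the triangle lies within the Crx-/- ZT20 range for Col7a1 at 6.69, above the other control arrays for Col3a1 at 12.16 and below them for Col13a1 at 7.27.

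Type VI chains, which form beaded filaments around cells and beside basement membranes, were called higher for all 3 tested genes at ZT6. Col6a1 read 12.63, 12.41 and 12.38 in Crx-/- glands, against 11.07, 10.92 and 11.27 in control glands. Col6a3, the longest chain of the filament, read 9.93, 9.39 and 9.57 in Crx-/- glands, against 7.65, 7.63 and 7.76 in control glands. The differences were 1.39 ± 0.13 for Col6a1, 1.62 ± 0.14 for Col6a2 and 1.95 ± 0.20 for Col6a3 (limma adjusted p = 0.00013, 0.00013 and 0.000158), and no array of one genotype overlapped the other. Col6a1 and Col6a2 are neighbours on chromosome 10.

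Among fibril-associated chains, which sit on fibril surfaces, 3 of 6 were called higher at ZT6. Col12a1 and Col14a1, which bind type I fibrils, rose by 1.49 ± 0.26 and 1.49 ± 0.39, and Col16a1 rose by 1.54 ± 0.25 (limma adjusted p = 0.00187, 0.0135 and 0.00135). Col14a1 read 10.24, 10.11 and 9.87 in Crx-/- glands at ZT6, against 8.82, 8.19 and 8.73 in control glands. Col9a3, Col20a1 and Col22a1 differed by 0.26 to 0.99 by their brightest probe sets and were not called. Col9a3 pairs in cartilage with the chains of Col9a1 and Col9a2, both of which were below the filter here.

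Calls among the type IV chains differed by gene at ZT6. Col4a1 and Col4a2 make the ubiquitous basement membrane network, and Col4a3 to Col4a6 make more restricted networks, known from the kidney glomerulus among other tissues. Only the first pair was called higher at ZT6, 2 of 6 genes. Col4a1 read 11.83, 11.39 and 11.34 in Crx-/- glands at ZT6, against 10.28, 10.17 and 10.08 in control glands. Col4a2 read 12.07, 11.67 and 11.66 in Crx-/- glands at ZT6, against 10.64, 10.58 and 10.56 in control glands. Neither overlapped, and the differences were 1.34 ± 0.15 and 1.21 ± 0.12 (limma adjusted p = 0.000251 and 0.000153). Col4a1 on the minus strand and Col4a2 on the plus strand of chromosome 8 have annotated starts 21 bases apart (GRCm38.p6). The starts are at 11312826 and 11312805 in that order, so the annotated 5′ ends of the 2 genes overlap. Col4a3 to Col4a6 differed by -0.33 to 0.50. Whether their differences are unlike those of Col4a1 and Col4a2 was not tested.

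Both multiplexins, the basement membrane zone collagens XV and XVIII whose ends are released as anti-angiogenic fragments, were called higher, by 1.20 ± 0.14 for Col15a1 and 1.02 ± 0.19 for Col18a1 (limma adjusted p = 0.000321 and 0.00261). Col8a2, a short chain of the membrane under corneal endothelium, was called higher by 0.64 ± 0.23 (limma adjusted p = 0.0477), while its partner Col8a1 differed by -0.10 ± 0.08.

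The remaining chains went both ways. Col26a1, a small collagen described in testis and ovary, read 7.30, 7.16 and 7.41 in Crx-/- glands at ZT6, against 4.60, 5.59 and 4.70 in control glands, 2.32 ± 0.36 higher (limma adjusted p = 0.00103). Col25a1, a neuronal transmembrane collagen, was 2.18 ± 0.41 higher (limma adjusted p = 0.00253). Its 3 Crx-/- arrays spread widely, with an SD of 0.75, against 0.06 in control glands.

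Col7a1 was the gene of largest fall. It makes the anchoring fibrils that tie epithelium to the underlying matrix. It read 7.22, 7.27 and 7.00 in Crx-/- glands at ZT6, against 9.17, 9.14 and 9.22 in control glands, a difference of -2.01 ± 0.47 (limma adjusted p = 0.00781). Col13a1, a transmembrane collagen of cell junctions, read 8.20, 8.01 and 8.06 in Crx-/- glands, against 9.27, 9.17 and 9.12 in control glands, a difference of -1.10 ± 0.25 (limma adjusted p = 0.00676). Col23a1, another transmembrane collagen, was lower by its brightest probe set (-0.80 ± 0.14, limma adjusted p = 0.00179), but its 2 other probe sets differed by 0.27 and 0.29, so its direction depends on the probe set.

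Other probe sets of the same genes mostly agreed at ZT6. Of 13 further probe sets of called genes that passed the filter, 11 went the same way and were called themselves, and the 2 others were those of Col23a1. Sizes differed: Col1a1 was 0.85 by its brightest probe set and 1.61 by the dimmer one, and Col1a2 was 0.96 and 1.41. Col4a3 was not called by its brightest probe set, while its other probe set was lower by -0.98 (limma adjusted p = 0.021). Col9a3 was likewise not called by its brightest probe set, but another was 0.71 ± 0.17 higher (limma adjusted p = 0.0091). Another probe set of Col20a1 was 1.33 ± 0.30 higher (limma adjusted p = 0.0074), while its remaining ones differed by 0.25 and 0.31 and were not called.

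At ZT20 fewer collagen genes were called. With all 12 arrays 9 of 32 were higher and 0 lower in Crx-/- than in control glands. Of all genes tested 6.83% were called higher and 4.81% lower. At an unadjusted limma p under 0.05, 17 of the 32 were higher and 1 lower, against 2470 and 1832 of 12379 genes. The median difference was 0.50, against 0.04 over all genes. The 9 were Col6a1, Col6a2, Col6a3, Col4a1, Col4a2, Col15a1, Col18a1, Col14a1 and Col9a3. By their brightest probe sets Col14a1 differed by 1.47 ± 0.39 and Col6a3 by 1.01 ± 0.20 (limma adjusted p = 0.0398 and 0.0248), but the other probe set of Col14a1 differed by 0.49 ± 0.18 and was not called (limma adjusted p = 0.0949 over all kept probe sets). Of 4 further probe sets of called genes at ZT20, 4 went the same way and 2 were called. Some genes that were not called had another probe set that was, with limma p adjusted over all kept probe sets. Col5a2 was 1.04 ± 0.17 higher by its other probe set (adjusted p = 0.0266), and 2 probe sets of Col8a1 differed by -0.66 ± 0.16 and -0.93 ± 0.15 (adjusted p = 0.0332 and 0.0266), while its brightest differed by -0.15 ± 0.08.

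Col6a3 read 9.57, 9.61 and 9.37 in Crx-/- glands at ZT20, against 8.38, 8.19 and 8.96 in control glands, and Col14a1 read 11.57, 10.26 and 9.40 in Crx-/- glands, against 8.82, 8.99 and 8.99 in control glands. The Crx-/- arrays lay above the control arrays for both genes, and Col14a1 spread widely among the Crx-/- arrays, with an SD of 1.09. Col6a1 read 12.39, 12.34 and 12.10 in Crx-/- glands, against 11.43, 11.75 and 11.84 in control glands, 0.60 ± 0.13 higher. Col6a2 was 0.69 ± 0.14 higher (limma adjusted p = 0.0263 for Col6a1 and 0.0253 for Col6a2).

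Col4a1 read 11.18, 11.00 and 10.92 in Crx-/- glands at ZT20, against 10.52, 10.28 and 10.75 in control glands, 0.51 ± 0.15 higher. Col4a2 read 11.38, 11.32 and 11.16 in Crx-/- glands, against 10.87, 10.71 and 10.79 in control glands, 0.50 ± 0.12 higher (limma adjusted p = 0.0475 and 0.0299 in that order). Neither overlapped. Col15a1 was 0.75 ± 0.14, Col18a1 0.92 ± 0.19 and Col9a3 0.90 ± 0.24 higher (limma adjusted p = 0.0244, 0.0263 and 0.0381). The other probe set of Col9a3 differed by 0.44 ± 0.17 and was not called (limma adjusted p = 0.0934 over all kept probe sets).

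None of the 8 fibrillar genes was called by its brightest probe set at ZT20, and their median difference was 0.41. At an unadjusted limma p under 0.05, 5 of the 8 were higher, against 2470 of 12379 genes. Col1a1 read 12.80, 12.82 and 12.84 in Crx-/- glands, against 12.50, 12.79 and 12.83 in control glands, a difference of 0.11 ± 0.09. Col1a2 read 12.88, 12.88 and 12.83 in Crx-/- glands, against 12.42, 12.64 and 12.75 in control glands, a difference of 0.26 ± 0.08. Col3a1 read 12.02, 11.94 and 11.82 in Crx-/- glands, against 11.32, 11.33 and 12.16 in control glands, a difference of 0.33 ± 0.21. The limma adjusted p was 0.403 for Col1a1, 0.0526 for Col1a2 and 0.269 for Col3a1. Control replicate 3 held the highest control value for all 3.

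Without control ZT20 replicate 3, 20 of the 32 genes were called higher and 2 lower in Crx-/- glands at ZT20, where 24% of all genes tested were higher and 19.6% lower. Fibrillar genes then numbered 5 of 8 called, with Col1a2 at 0.33, Col3a1 at 0.61, Col5a1 at 0.65, Col5a2 at 0.62 and Col11a1 at 0.76, and type IV genes 5 of 6. The type IV genes added were Col4a4, Col4a5 and Col4a6, higher by 0.75, 0.80 and 0.83 with 2 control arrays (limma adjusted p = 0.0081, 0.000253 and 0.00654). Col1a1 differed by 0.17 and was not called. Col7a1 read 6.76, 6.50 and 6.76 in Crx-/- glands at ZT20, against 9.36, 8.52 and 6.69 in control glands, and it differed by -1.52 ± 0.47 with all arrays and by -2.27 ± 0.21 without that array (limma adjusted p = 0.0552 and 3.61e-06). Col23a1 was the other gene called lower, at -0.40.

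For 3 further genes with large ZT6 differences the genotypes overlapped at ZT20 through control ZT20 replicate 3, given last among the control values, and did not overlap without it. With it left out, 24 of the 32 genes lay wholly higher in Crx-/- glands and 6 wholly lower. Over all 12379 genes 4250 lay wholly higher and 3535 wholly lower, so most genes separated in that comparison. Col11a1 read 6.25, 7.06 and 7.00 in Crx-/- glands, against 5.77, 6.24 and 6.46 in control glands. Col26a1 read 5.90, 6.47 and 6.77 in Crx-/- glands, against 5.20, 5.81 and 6.12 in control glands. Col13a1 read 8.07, 7.98 and 7.29 in Crx-/- glands, against 8.09, 8.23 and 7.27 in control glands. Without that array the differences were 0.76 for Col11a1, 0.87 for Col26a1 and -0.38 for Col13a1 (limma adjusted p = 0.0477, 0.0693 and 0.145). Leaving out other arrays gave fewer calls at ZT20: 0 without control ZT20 replicate 1, control ZT20 replicate 2, Crx-/- ZT20 replicate 1 or Crx-/- ZT20 replicate 2, and 5 without control ZT6 replicate 1. The shares of all genes called without these arrays are not given. The counts thus describe the setting and not collagen genes in particular.

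Control glands differed between night and day. Of the 32 genes 10 were higher and 2 lower at ZT20 than at ZT6 in control glands, where 7.09% of all genes tested were called higher and 9.04% lower, and the median difference was 0.46, against -0.02 over all genes. Fibrillar genes made up 5 of the 10, and type VI genes 3. Col1a1 was higher at ZT20 by 0.67 ± 0.09, Col1a2 by 0.61 ± 0.08, Col3a1 by 1.02 ± 0.21, Col5a1 by 1.02 ± 0.19 and Col5a2 by 1.18 ± 0.18 (limma adjusted p = 0.000802, 0.000553, 0.0065, 0.00486 and 0.00151). The control ZT20 values did not overlap the control ZT6 values for these genes. In this contrast 17 of the 32 genes lay wholly higher and 2 wholly lower, against 1937 and 2610 of 12379 genes.

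Col6a1, Col6a2 and Col6a3 were higher at ZT20 in control glands by 0.59 ± 0.13, 0.79 ± 0.14 and 0.83 ± 0.20 (limma adjusted p = 0.00934, 0.00317 and 0.0145). Col12a1 and Col25a1 were higher by 1.11 ± 0.26 and 1.52 ± 0.41, and Col13a1 and Col23a1 differed by -1.32 ± 0.25 and -0.61 ± 0.14 (limma adjusted p = 0.0143, 0.0267, 0.00458 and 0.0124). No type IV gene was called. At an unadjusted limma p under 0.05, 1 type IV gene was higher and 0 lower, against 1768 and 2170 of 12379 genes. Col4a1 differed by 0.34 ± 0.15 and Col4a2 by 0.20 ± 0.12. Leaving out control ZT20 replicate 3, 10 genes were higher and 3 lower, Col4a5 being added at -0.76, where 12% and 13.1% of all genes were called. With signals as deposited, which shift the median of all genes in this contrast by -0.28, 2 genes were called in place of 12. The share of all genes called with signals as deposited is not given. Of 9 further probe sets of the genes called in this contrast, 7 went the same way and 4 were called, and the 2 other probe sets of Col8a1 were higher at ZT20 by 0.55 and 0.91 (limma adjusted p = 0.0418 and 0.0023 over all kept probe sets).

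In Crx-/- glands 1 collagen gene was called over time. Of the 32 genes 0 were higher and 1 lower at ZT20 than at ZT6 in Crx-/- glands. Over all genes tested 0.695% were called higher and 0.881% lower. At an unadjusted limma p under 0.05, 0 of the 32 were higher and 4 lower, against 561 and 1069 of 12379 genes. The median difference was -0.12, against -0.04 over all genes. The called gene was Col4a2, lower by -0.51 ± 0.12 (limma adjusted p = 0.0493), and it was not called without any 1 of the other 11 arrays. Without control ZT20 replicate 3, 0 were called higher and 2 lower (2.58% and 3.52% of all genes tested), Col4a1 being added at -0.49. Col1a1 differed by -0.07 ± 0.09, Col1a2 by -0.09 ± 0.08, Col3a1 by -0.42 ± 0.21 and Col6a1 by -0.19 ± 0.13. Col4a1 at ZT20 in Crx-/- glands lay wholly below ZT6, a difference of -0.49 ± 0.15 (limma adjusted p = 0.168). So did 7 of the 32 genes in all, and 1737 of 12379 genes.

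**Figure D3:**
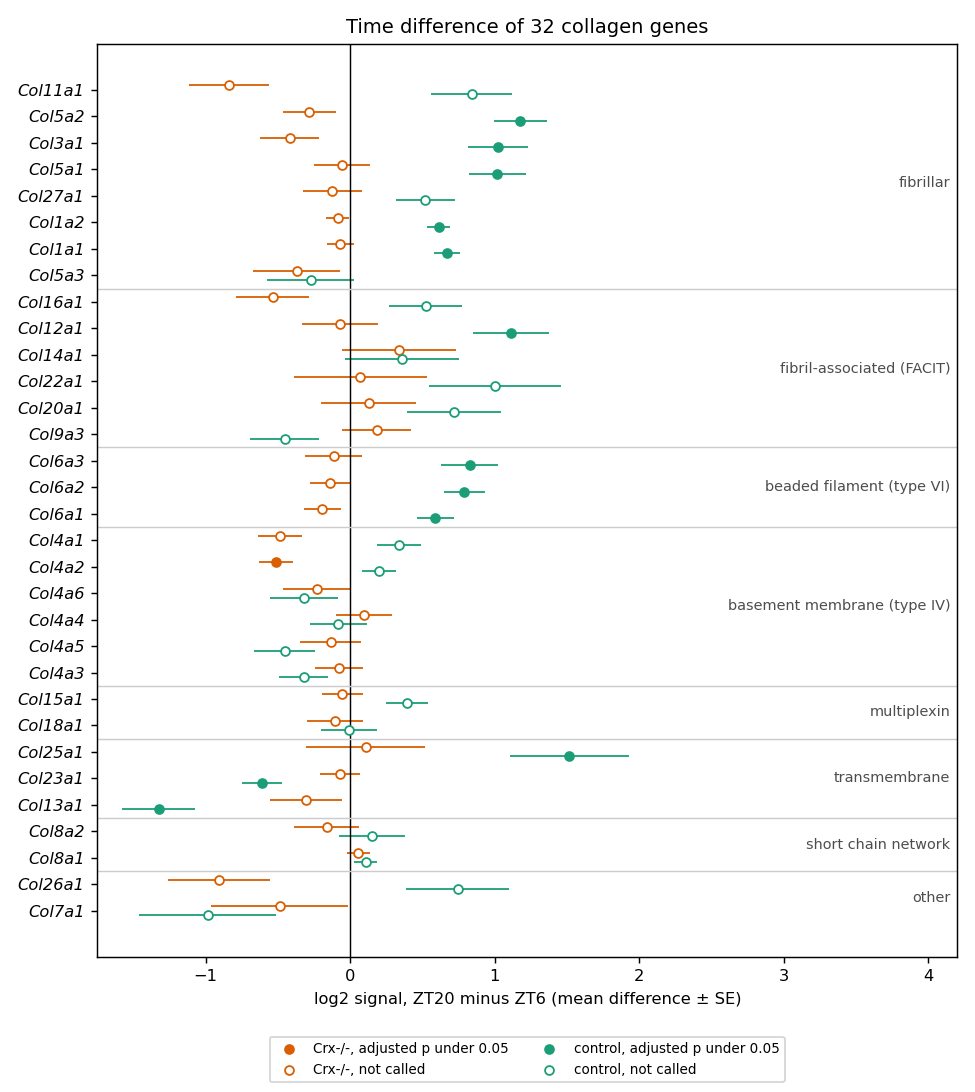
Difference between ZT20 and ZT6 (log2 signal, mean ± SE) for the 32 tested collagen genes in Crx-/- glands (orange) and in control glands (green), with filled points for an adjusted p under 0.05. In control glands 10 genes were called higher at ZT20 and 2 lower, and in Crx-/- glands Col4a2 was the 1 called gene.

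A change of the genotype difference with time was called for 3 genes, all fibrillar. At an unadjusted p under 0.05, 17 of the 32 genes were lower and 2 higher, against 879 and 808 of 12379 genes. The median change was -0.91 over the 8 fibrillar genes and -0.93 over the 3 type VI genes, and all 3 of the latter had such a p. Col1a1, Col1a2 and Col5a2 had a genotype difference smaller at ZT20 than at ZT6, by -0.74 ± 0.13, -0.70 ± 0.11 and -1.46 ± 0.26 (limma adjusted p = 0.0496, 0.0488 and 0.0496). Over all genes 0.113% were called in the other direction and 0.121% in this one, and the median was -0.67 over the 32 genes and -0.02 over all. Each of the 3 p-values lies close to the threshold, and 0 genes were called with the replicate number as a block over all arrays, or 6 with it as a block at ZT20 only. The other probe sets gave -1.61 for Col1a1, -1.26 for Col1a2 and -0.75 for Col5a2, and with p adjusted over all kept probe sets 1 of the 6, the other probe set of Col1a1, was called (limma adjusted p = 0.0151). Without control ZT20 replicate 3, 9 collagen genes were lower and 1 higher, with Col3a1 at -1.16, Col11a1 at -1.53, Col6a1 at -0.70, Col6a2 at -0.85, Col4a1 and Col4a2 at -0.71 each, and Col4a5 at 0.62, and 3.84% and 2.24% of all genes were called lower and higher. Without any of the other 11 arrays at most 2 were called, and 0 without 10 of them. The shares of all genes called with a block, or without any of those arrays, are not given. Those counts thus describe the setting and not collagen genes in particular.

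**Figure D4:**
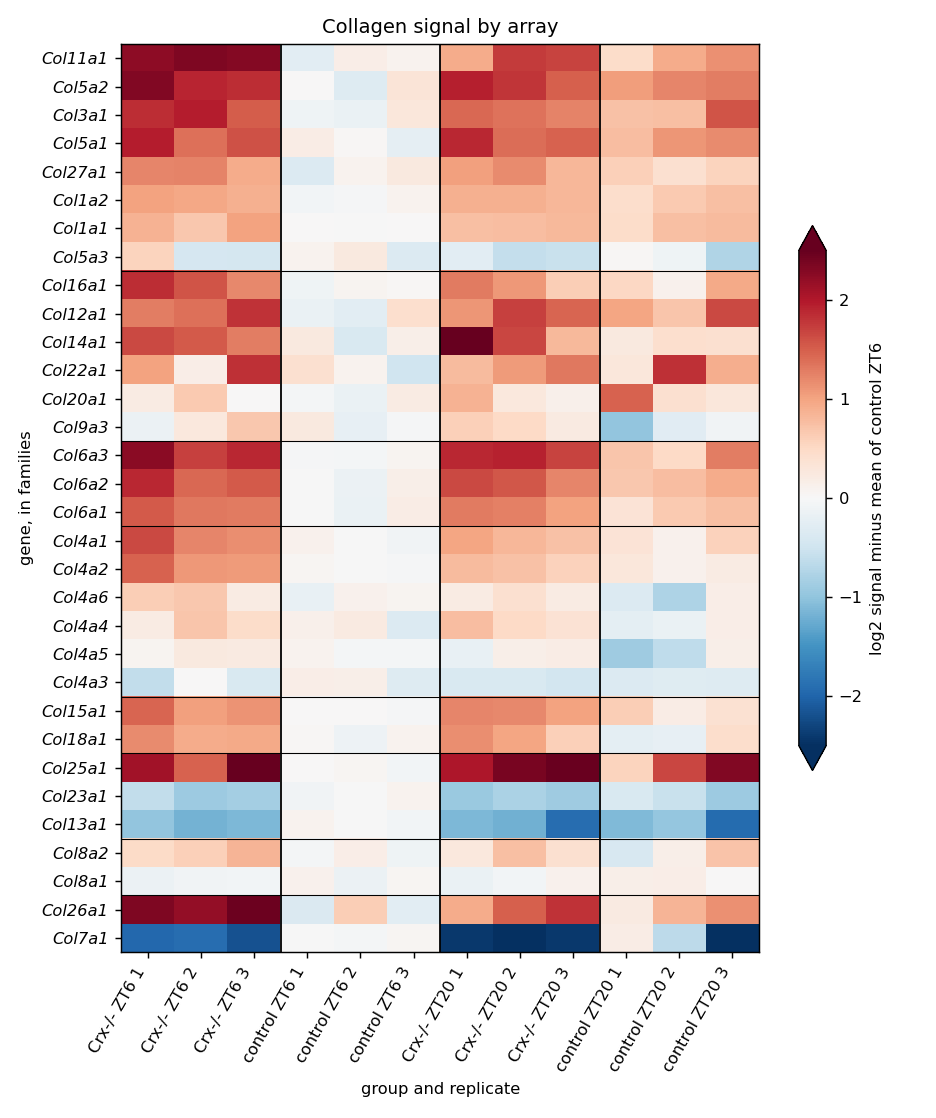
Signal of the 32 tested collagen genes on each array, as log2 difference from the mean of the control ZT6 arrays (colour; red higher, blue lower), with genes grouped by family and arrays by group and replicate. The type VI genes and Col3a1, Col5a1 and Col5a2 are red in all Crx-/- arrays and paler red in the control ZT20 arrays labelled replicates 1 and 2, and Col7a1 is deep blue on the array labelled control ZT20 replicate 3.

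The authors' deposited table of Crx-/- against control, made for both times together, listed 14 collagen genes as higher, from 1.66 for Col6a3 to 1.03 for Col11a1, Col12a1 and Col15a1 on the log2 scale, and Col7a1 as lower at -1.84. All 14 were called higher at ZT6 and 7 at ZT20 in the fits above, and they make up 14 of the 20 called higher at ZT6. Both rest on the same arrays.

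Genes that make, bind and remove collagen moved beside it. The lists of these genes were chosen with results of these data known. Of genes that fold, modify and cross-link the chains, 13 of 25 tested were higher and 1 lower at ZT6, with a median of 0.59. Lox, the enzyme that cross-links collagen and elastin, rose by 1.87 ± 0.17, Serpinh1, the collagen chaperone HSP47, by 1.02 ± 0.17, and Plod2, a lysyl hydroxylase, by 0.98 ± 0.21, and P3h4, a partner of the hydroxylases, differed by -0.999 ± 0.180 (limma adjusted p = 0.00013, 0.00142, 0.00521 and 0.00204). At ZT20 3 were higher and 2 lower, with Lox at 0.59 ± 0.17, Pcolce at 0.70 ± 0.14 and P3h4 at -0.89 ± 0.18, and without control ZT20 replicate 3, 14 were higher and 3 lower.

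Genes encoding proteins that bind fibrils were higher for 17 of 22 and lower for 2 at ZT6, with a median of 0.93. Omd and Aspn, small leucine-rich proteoglycans, rose by 1.63 ± 0.21 and 1.42 ± 0.19, Eln, which encodes elastin, by 1.55 ± 0.17, and Tnxb, a tenascin, by 1.35 ± 0.30 (limma adjusted p = 0.000461, 0.000525, 0.000199 and 0.00586). The 2 lower genes, named after their values were seen, were Fbln5, which assembles elastic fibres, at -1.33, and Comp, which binds collagen in cartilage, at -1.22. Genes of basement membrane partners of type IV were higher for 13 of 16 and lower for 0, with a median of 0.84. Laminin chain Lama2 rose by 1.55 ± 0.18, the linkers Nid1 and Nid2 by 1.29 ± 0.15 and 1.20 ± 0.19, and laminin chain Lama4 by 1.12 ± 0.19 (limma adjusted p = 0.000318, 0.000291, 0.00108 and 0.0017). At ZT20 3 of 22 fibril-binding genes were higher and 1 lower, and 3 of 16 basement membrane partners were higher. These counts without control ZT20 replicate 3 were 13 higher and 2 lower of 22, and 15 higher and 1 lower of 16.

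Collagen receptor genes were higher for 5 of 10 and lower for 0 at ZT6. Among them were the uptake receptor Mrc2 at 1.29 ± 0.20 and the receptor kinase Ddr2 at 1.06 ± 0.12 (limma adjusted p = 0.0011 and 0.00029). Breakdown genes and their inhibitors were higher for 7 of 12 and lower for 0, with the gelatinase Mmp2 at 1.32 ± 0.15, Mmp16 at 1.73 ± 0.28 and the protease Ctsk at 1.22 ± 0.22. TGF-beta genes, whose pathway induces many collagens, were higher for 10 of 17 and lower for 0, with the ligand Tgfb3 at 0.92 ± 0.15, the target Ccn2 at 0.999 ± 0.244, the ligand-binding Ltbp4 at 0.86 ± 0.25 and the target Tgfbi at 0.84 ± 0.16. At ZT20 2 receptors, 2 breakdown genes and 2 TGF-beta genes were higher and 0 of each lower, and without control ZT20 replicate 3, 6 receptors, 5 breakdown genes and 10 TGF-beta genes were higher and 0 lower. Each count stands against 18.9% of all genes higher at ZT6 and 6.83% at ZT20, or 24% at ZT20 without that array. For genes called lower these shares were 13.1%, 4.81% and 19.6%.

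Markers of collagen-making cells moved too. Of 21 tested fibroblast and meningeal markers, collagens left out, 16 were higher and 2 lower at ZT6, with a median of 1.20, and at ZT20 8 were higher and 0 lower, or 18 and 1 without control ZT20 replicate 3. For these and the marker lists that follow, the shares of all genes tested were 18.9% higher and 13.1% lower at ZT6, and 6.83% and 4.81% at ZT20. Without control ZT20 replicate 3 the ZT20 shares were 24% higher and 19.6% lower. Aldh1a2, the retinoic acid enzyme of meninges, rose at ZT6 by 2.00 ± 0.30, Thy1 by 2.00 ± 0.55 and Crabp2 by 1.82 ± 0.30, while Dpp4 differed by -1.89 ± 0.20. The summed signal of the list was 43577 to 45464 in Crx-/- glands at ZT6, against 25964 to 26660 in control glands, and 44970 to 46922 in Crx-/- glands at ZT20, against 24726 to 45924 in control glands, where the highest was replicate 3. Sums of mural markers were 16336 to 19962 in Crx-/- glands at ZT6, against 12868 to 13177 in control glands, with 7 of 12 higher and 1 lower. For endothelial markers the sums were 26685 to 32259 in Crx-/- glands at ZT6, against 21415 to 22546 in control glands, with 7 of 17 higher and 0 lower. At ZT20 0 of 12 mural markers were called, and 1 of 17 endothelial markers was higher and 0 lower. Without control ZT20 replicate 3 these were 5 higher and 2 lower, and 7 higher and 1 lower. Mural sums were 16830 to 20667 in Crx-/- glands at ZT20, against 14374 to 18070 in control glands, and endothelial sums were 26463 to 30843 in Crx-/- glands, against 24496 to 26787 in control glands, with the highest control sum of both lists on replicate 3.

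Markers of further cell types moved as well at ZT6: 7 of 11 astrocyte markers were higher, 9 of 12 microglial and macrophage markers higher and 1 lower, all 3 tested oligodendrocyte and Schwann markers higher, and 3 of 9 choroid plexus markers higher. Bone and cartilage markers gave 2 of 4 higher at ZT6 and 0 at ZT20, or 1 at ZT20 without control ZT20 replicate 3. Matn1 was above background on 0 arrays and Ibsp on 4, while Sp7, Dmp1, Acan, Matn3, Cnmd and Hapln1 were above it on 12. Skeletal muscle gave 1 tested marker of 10, Tnnc2, higher by 3.36 at ZT6 and not called at ZT20. Ckm was above background on 2 arrays, Tnnc2 and Pvalb on 10, and Mylpf and Actn3 on 12. Pinealocyte markers gave 1 higher and 5 lower of 12, and their summed signal was 62043 to 64356 in Crx-/- glands at ZT6, against 70179 to 71530 in control glands. At ZT20 1 of 11 astrocyte, 0 of 12 microglial and macrophage, 3 of 3 oligodendrocyte and Schwann, and 3 of 9 choroid plexus markers were higher. Without control ZT20 replicate 3 these were 9, 2, 3 and 6 higher in that order. In that fit 1 astrocyte marker and 1 microglial and macrophage marker were lower. Pinealocyte markers gave 1 higher and 2 lower at ZT20, or 5 and 5 without that array. The part of these cell types in the collagen differences was not tested.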

How the data were processed

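Members and gene lists were chosen with earlier results of these data known. Per the labels' protocols, 100 ng of pineal RNA was amplified with the NuGEN Ovation system and hybridised to Affymetrix mouse expression arrays. The deposited values are linear signal intensity per probe set, made with GCOS per the submitters' processing notes, and array medians differ, so no common scale had been set. Further deposited files list log2 fold changes with a signed linear fold score, made with ChipInspector 2.1 for both times together, per the series' design text.

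From the intensities, signals were quantile normalised and log2(signal + 3.4) was taken, 3.4 being the 10th percentile. Probe sets were kept where at least 3 arrays reached their array's median (24273 of 45101, which include 64 control features). Symbols came from the platform annotation: 34945 probe sets had 1 symbol, 932 several and 9160 none, and the last 2 kinds were not tested. Background was set from 27 Bacillus control probe sets. All 12 arrays entered 1 group-means model in limma (version 3.58.1, R version 4.3.3; lmFit, eBayes with a trend), two-sided, with Benjamini-Hochberg adjustment over 12379 genes, and 3 arrays per group limit the precision. The fit was tested on simulated data. Same-numbered arrays of the ZT20 groups deviated together over genes (r = 0.131 to 0.186 in 3 pairs, each over 0.1), while no other pair of groups did so in all 3, so a block at ZT20 only was added after the data were seen. Whether a biological replicate was 1 animal or a pool is not given in the sources used here. Values were given in the text for called genes (the 12 of largest change per direction where more were called) and always for Col1a1, Col1a2, Col3a1, Col4a1, Col4a2 and Col6a1. Alternatives were other scalings, pseudocounts, filters, probe set rules, array weights, a replicate block and leaving out each array. Promoters came from RefSeq (GRCm38.p6).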

Additional observations from a re-analysis of the deposited data

Results flagged for a closer look

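Col1a1, Col1a2 and Col5a2 are singled out because their genotype difference at ZT20 minus that at ZT6 passed limma's interaction test, at -0.74, -0.70 and -1.46 on the log2 scale (adjusted p = 0.0496, 0.0488 and 0.0496). Col1a1 differed between Crx-/- and control glands by 0.85 at ZT6 and 0.11 at ZT20, Col1a2 by 0.96 and 0.26, and Col5a2 by 2.03 and 0.57. The other probe set of Col5a2 gave 1.78 at ZT6 and 1.04 at ZT20, an interaction of -0.75 (limma adjusted p = 0.25 over all kept probe sets). No collagen gene was called with trimmed-mean scaling, with signals as deposited, without the filter, with a prior without a trend, with the replicate block over all arrays, or without any 1 of 10 arrays. The shares of all genes called under these settings are not given. Without control ZT20 replicate 3 the interactions were -0.68, -0.63 and -1.41 (limma adjusted p = 0.00774, 0.00344 and 0.00774), and 10 collagen genes were called in place of 3.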

How the results depend on the processing

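For Crx-/- against control at ZT6 the count of 23 called collagen genes stayed at 21 to 25 under every alternative run, and at 21 to 24 when each array was left out in turn. At ZT20 the count of 9 became 1 with signals as deposited and 26 with array weights, and 0 to 22 leaving out 1 array. For time in control glands 12 became 2 with signals as deposited and 23 with array weights (9 to 14 leaving out 1 array). For time in Crx-/- glands 1 became 0 with trimmed-mean scaling, with signals as deposited and with a prior without a trend, and 3 with array weights (0 to 2). For the interaction 3 became 0 with trimmed-mean scaling, with signals as deposited, without the filter, with a prior without a trend and with the replicate block, and 16 with array weights (0 to 10). Among the runs that left out 1 array, the highest counts came without control ZT20 replicate 3. The exception was time in control glands, where the highest count came without control ZT20 replicate 1. The causes were not tested. These counts stand without the share of all genes called under the same setting, so they describe the setting and not collagen genes in particular. Leaving out control ZT20 replicate 3 moved the shares of all genes at ZT20 from 6.83% higher and 4.81% lower to 24% and 19.6%.

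Unscaled signals moved the median of all genes to 0.26 for genotype at ZT20, -0.28 for time in control glands and -0.13 for time in Crx-/- glands. The sign turned for Col1a1 at ZT20 with trimmed-mean scaling (-0.000864), for Col4a2 over time in control glands with signals as deposited (-0.0715) and for Col1a1 over time in Crx-/- glands without Crx-/- ZT6 replicate 3 (0.0091, in a range of -0.156 to 0.0091 over arrays left out). None of these was called. Of the other values of single genes 1195 kept direction and call, 166 lost the call and 17 gained it. Deviations of the 18 same-numbered pairs of arrays correlated at -0.27 to 0.21, 5 of them over 0.1. A replicate block at ZT20 only, chosen after seeing the data, gave 12 called genes in place of 9 at ZT20 and 6 in place of 3 for the interaction. The replicate block over all arrays left the other counts at 23 for genotype at ZT6, 9 at ZT20, 13 for time in control and 1 in Crx-/- glands.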

Other observations

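An array labelled a control stood near the Crx-/- arrays, and its origin cannot be settled from the files used here. Probe sets of 1 gene differed in size, as for Col1a1 at 0.85 and 1.61 in Crx-/- against control glands at ZT6, so levels were not set against each other between genes. Dim genes such as Col26a1 and Col11a1 in control glands have understated folds through the added constant. No protein was measured.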
